A study of Saccharomyces cerevisiae with 12 samples.

Results

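The response of budding yeast to 48 h of culture was measured in cells that lack the intron of MMS2. Members were taken by their labels: the 2 libraries of the mms2 intron deletion at 48 h were set against the 2 libraries of the same strains in log phase, which are 4 of the 12 libraries in the series. The study removed the intron from MMS2 or from YSF3, genes whose functions are unrelated, and asked how the introns bear on the repression of genes in starvation. The 48 h cells of the mms2 intron deletion are labelled as stationary and its log-phase cells as growing. Both came from strains 1 and 2 of the BY laboratory background, a haploid line that needs several nutrients supplied. All groups had the same synthetic medium, with 2% glucose and with lysine, uracil, leucine and histidine added. The ysf3 intron deletion and the wild type, each with 2 strains sampled in the same phases, serve here only as a measure of what the mms2 intron deletion shares with other cells. Nothing in the labels says that the strains of a genotype are separate transformants, so the spread between strains and cultures may be partly technical. The p-values and standard errors rest on that spread pooled over all 12 libraries, not on the mms2 strains alone. The pool includes a wild-type library with the opposite mating-type pattern, described below.

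Yeast in glucose medium first ferments the sugar to ethanol and grows fast, and most of its messenger RNA then serves ribosomes and glycolysis. When glucose runs out the cells turn to ethanol and acetate, which needs respiration, the glyoxylate cycle and gluconeogenesis, and when these are spent too they stop dividing and store trehalose and glycogen. The switch is carried by lower activity of TORC1 and protein kinase A and by higher activity of the Snf1 kinase, which release transcription factors such as Msn2, Msn4, Gis1, Adr1 and Cat8.

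MMS2 encodes a ubiquitin-conjugating enzyme variant that has no active site of its own. With Ubc13 it builds chains of ubiquitin on PCNA, the sliding clamp of DNA polymerases, in an error-free path past damaged DNA. The intron that the strains lack is shown first because it defines the genotype. It lies inside the coding sequence on the minus strand of sacCer3 at chrVII:346809-346893 and is given from the reference genome, 5′ to 3′, with the 5′ splice site, the branch point and the 3′ splice site in capitals.
MMS2 intron: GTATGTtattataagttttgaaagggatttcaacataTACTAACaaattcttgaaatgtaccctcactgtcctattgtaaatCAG
Its 5′ splice site GTATGT and its branch point TACTAAC have the letters that most yeast introns have. Reads were assigned to whole genes in the deposited table, so the deletion itself could not be checked in it.

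MMS2 was counted at a low level in both phases. It had 20.3 and 26.4 CPM (counts scaled to the size of the library) at 48 h, against 22.1 and 20.8 CPM in log phase. The phases overlapped, strain 1 was slightly lower and strain 2 slightly higher at 48 h, and the log2 fold change was 0.14 ± 0.17 (SE, n = 2 libraries per phase here and throughout; adjusted p = 0.493 by edgeR's quasi-likelihood test with Benjamini-Hochberg adjustment over all genes). The genes around it on chromosome VII moved in both directions. On the side of its 3′ end the kinetochore gene SPC105 rose by 0.91 ± 0.12 on the log2 scale (edgeR adjusted p = 6.1e-05) and the iron-sulfur assembly gene NBP35 by 0.92 ± 0.13 (edgeR adjusted p = 1.1e-04). On the other side the checkpoint gene MAD1, which is read away from MMS2, had a log2 fold change of -0.28 ± 0.17 (edgeR adjusted p = 0.176), and GUP1, further along, fell by 0.69 ± 0.14 (edgeR adjusted p = 0.00123). Over the 11 neighbours that were tested, the phase change minus that of the wild type ran from -0.41 to 0.56 log2, and the lowest edgeR adjusted p of these differences was 0.598. Without wild-type strain 1 they ran from -0.57 to 0.50, with a lowest edgeR adjusted p of 0.519.

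The libraries at 48 h held 5051438 counts in strain 1 and 15409749 in strain 2, and those in log phase 12522332 and 13866726, so strain 1 at 48 h is the least precise of the 4. Replicate libraries had a Pearson's r across genes of 0.983 at 48 h and 0.990 in log phase on the log2 scale. At 48 h the 10 highest genes took 23.5% and 27.0% of counts, against 11.8% and 11.9% in log phase. Small nucleolar RNAs and other stable RNAs made up much of this. All values are relative to the RNA counted, so a rise can be more RNA of a gene or less of the others, and in bulk RNA more RNA per cell and more cells with the RNA cannot be told apart. The cells had the pattern of mating type a: its 7 listed genes took 0.179% and 0.177% of counts in log phase, and the 5 of mating type alpha 0.00272% and 0.00298%. STE2, the gene of the receptor with which a cells sense the alpha pheromone, had 59.2 and 70.5 CPM at 48 h, against 897 and 940.2 CPM in log phase. The a-factor genes MFA1 and MFA2 of the same list did not show the a pattern, since they were barely counted in either phase, and were not tested. MFA1 had 0 counts in all 4 libraries, and MFA2 had 0 and 1 at 48 h and 2 and 1 in log phase. The pheromone gene MF(ALPHA)1 of the other mating type was at 0.592 and 0.709 CPM at 48 h and at 0 and 0.150 CPM in log phase. In the wild type, the log-phase library labelled strain 1 had the opposite pattern, with the alpha agglutinin gene SAG1 at 1518 CPM and 32.9 CPM in strain 2, so wild-type list counts, shares called and numbers of genes that differ are also given without that strain. The fit then rests on 1 wild-type library per phase, which is assumed to vary like those of the other groups.

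Of 6068 genes tested, 3890 passed an adjusted p under 0.05 in edgeR's test, which is 64.1% of them: 2027 rose at 48 h (33.4%) and 1863 fell (30.7%), and the median log2 fold change of all genes was 0.06. The share called was 63.6% by DESeq2, 59.4% with strain as a block and 44.4% in a test against a fold of 1.5. The changes were larger on the upper side. Among called genes 1358 rose and 1161 fell by at least 2-fold, 626 rose and 371 fell by at least 4-fold, and 319 rose and 60 fell by at least 8-fold. With the RNA genes that encode no protein left out before scaling, which was tried after the data were seen, 1964 genes rose and 1871 fell. The libraries of the phases did not overlap in 5048 genes, or 83.2% of those tested, with 43.0% of all genes higher in both 48 h libraries and 40.2% lower. The authors' deposited table for the same comparison lists 2690 genes at their adjusted p under 0.001, 1287 higher and 1403 lower, and 2684 of them were called here, all 2690 with the same sign.

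The strains moved alike over most of the genome. Each strain's own log2 ratio of 48 h to log phase, taken on CPM with 1 CPM added, had a Pearson's r of 0.941 between the strains over the 6068 genes, which share libraries and are not independent. The median difference between the strains' ratios was 0.27 log2 in size. Among called genes 3884 of 3890 had the same sign in both strains. The calls come from these same libraries and favour genes whose strains agree, so that count is no separate measure of agreement. The ratios were over 1 log2 apart in 280 genes, of which 135 had a mean of at least 10 CPM.

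**Figure D1:**
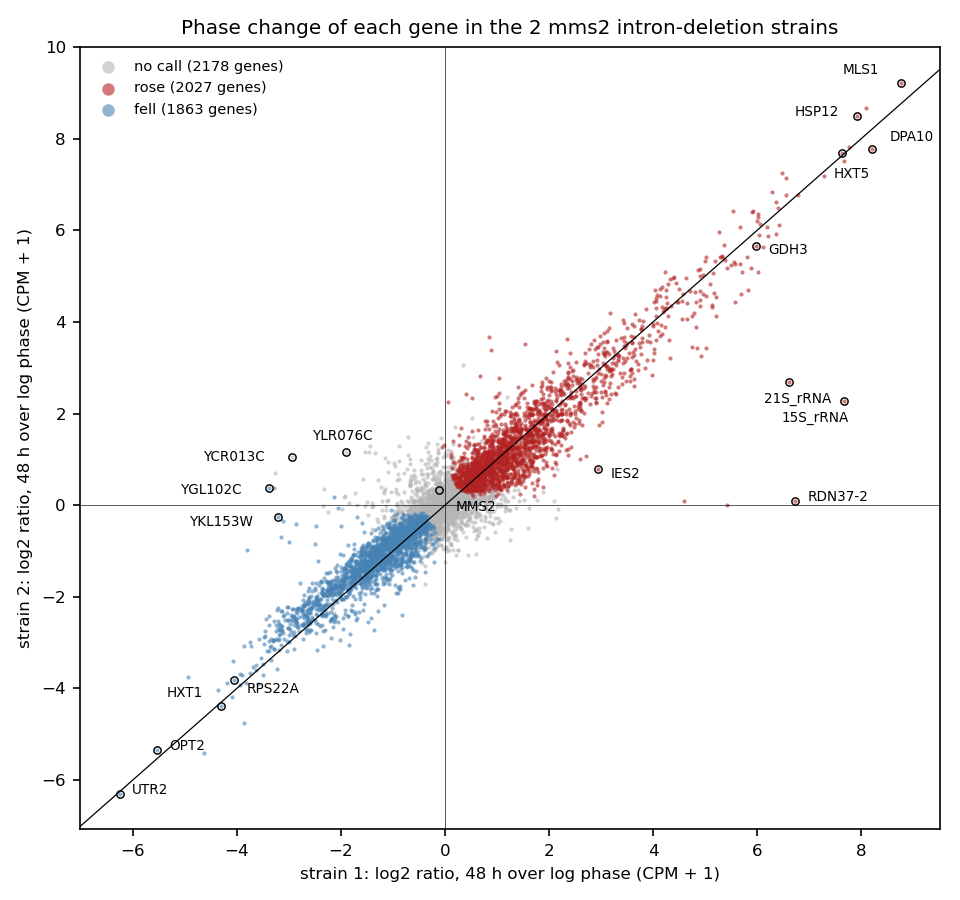
Each point is a gene tested in the mms2 intron deletion, with its log2 ratio of 48 h to log-phase CPM (1 CPM added) in strain 1 on the x axis and in strain 2 on the y axis. Red genes rose, blue genes fell and grey genes had no call in edgeR's test; most points lie near the diagonal line of equal change (r = 0.941), and the mitochondrial ribosomal RNAs, RDN37-2 and a few open reading frames lie far from it.

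A handful of genes moved in only 1 strain or far more in it. The mitochondrial small ribosomal RNA 15S_rRNA had 2746 and 46.2 CPM at 48 h, against 12.5 and 8.72 CPM in log phase. The large ribosomal RNA of the same genome, 21S_rRNA, had 3928 and 311 CPM at 48 h, against 39.4 and 47.8 CPM in log phase. Both were higher in both strains at 48 h, and strain 1 was far above strain 2. The call of 15S_rRNA was lost without strain 1 at 48 h (edgeR adjusted p = 0.351), without either log-phase library (0.0836 and 0.0958) and with strain as a block (0.0686), and that of 21S_rRNA without strain 1 at 48 h (edgeR adjusted p = 0.0775). The nuclear ribosomal RNA copy RDN37-2, which ribodepletion should remove and which shares its sequence with RDN37-1, was at 114 CPM in strain 1 at 48 h and at or below 0.0820 CPM in the other 3 libraries, which is a signal of 1 library. IES2, which encodes a subunit of the INO80 chromatin remodeller, had 53.5 and 11.2 CPM at 48 h, against 6.07 and 6.09 CPM in log phase. The histone chaperone gene ASF1 had 49.2 and 12.3 CPM at 48 h and 10.4 and 15.1 CPM in log phase, with no call (edgeR adjusted p = 0.116). In the other direction, YKL153W, YLR076C, YPL142C, YGL102C, YPR044C and YCR013C were high in strain 1 in log phase alone: YCR013C had 28.4 and 44.9 CPM at 48 h, against 226 and 21 CPM in log phase.

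Grouped by function, the lists of ribosomal proteins (medians of -2.52 and -2.50 log2 for the large and small subunit) and of purine synthesis (-2.27) lay at the low end. Those of the carnitine shuttle and methylcitrate cycle (4.92) and of the glyoxylate cycle and gluconeogenesis (4.85) lay at the high end. List members were named for their role or for the size of their change. The 12 libraries were fitted together, so calls in each genotype rest on its own means and on a spread shared by all. Counts for the other genotypes are from their own libraries: in the ysf3 intron deletion 66.8% of genes were called (33.9% higher, 32.9% lower), and in the wild type 67.1% (32.8% higher, 34.3% lower), or 54.0% (26.2% higher, 27.8% lower) without wild-type strain 1.

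**Figure D2:**
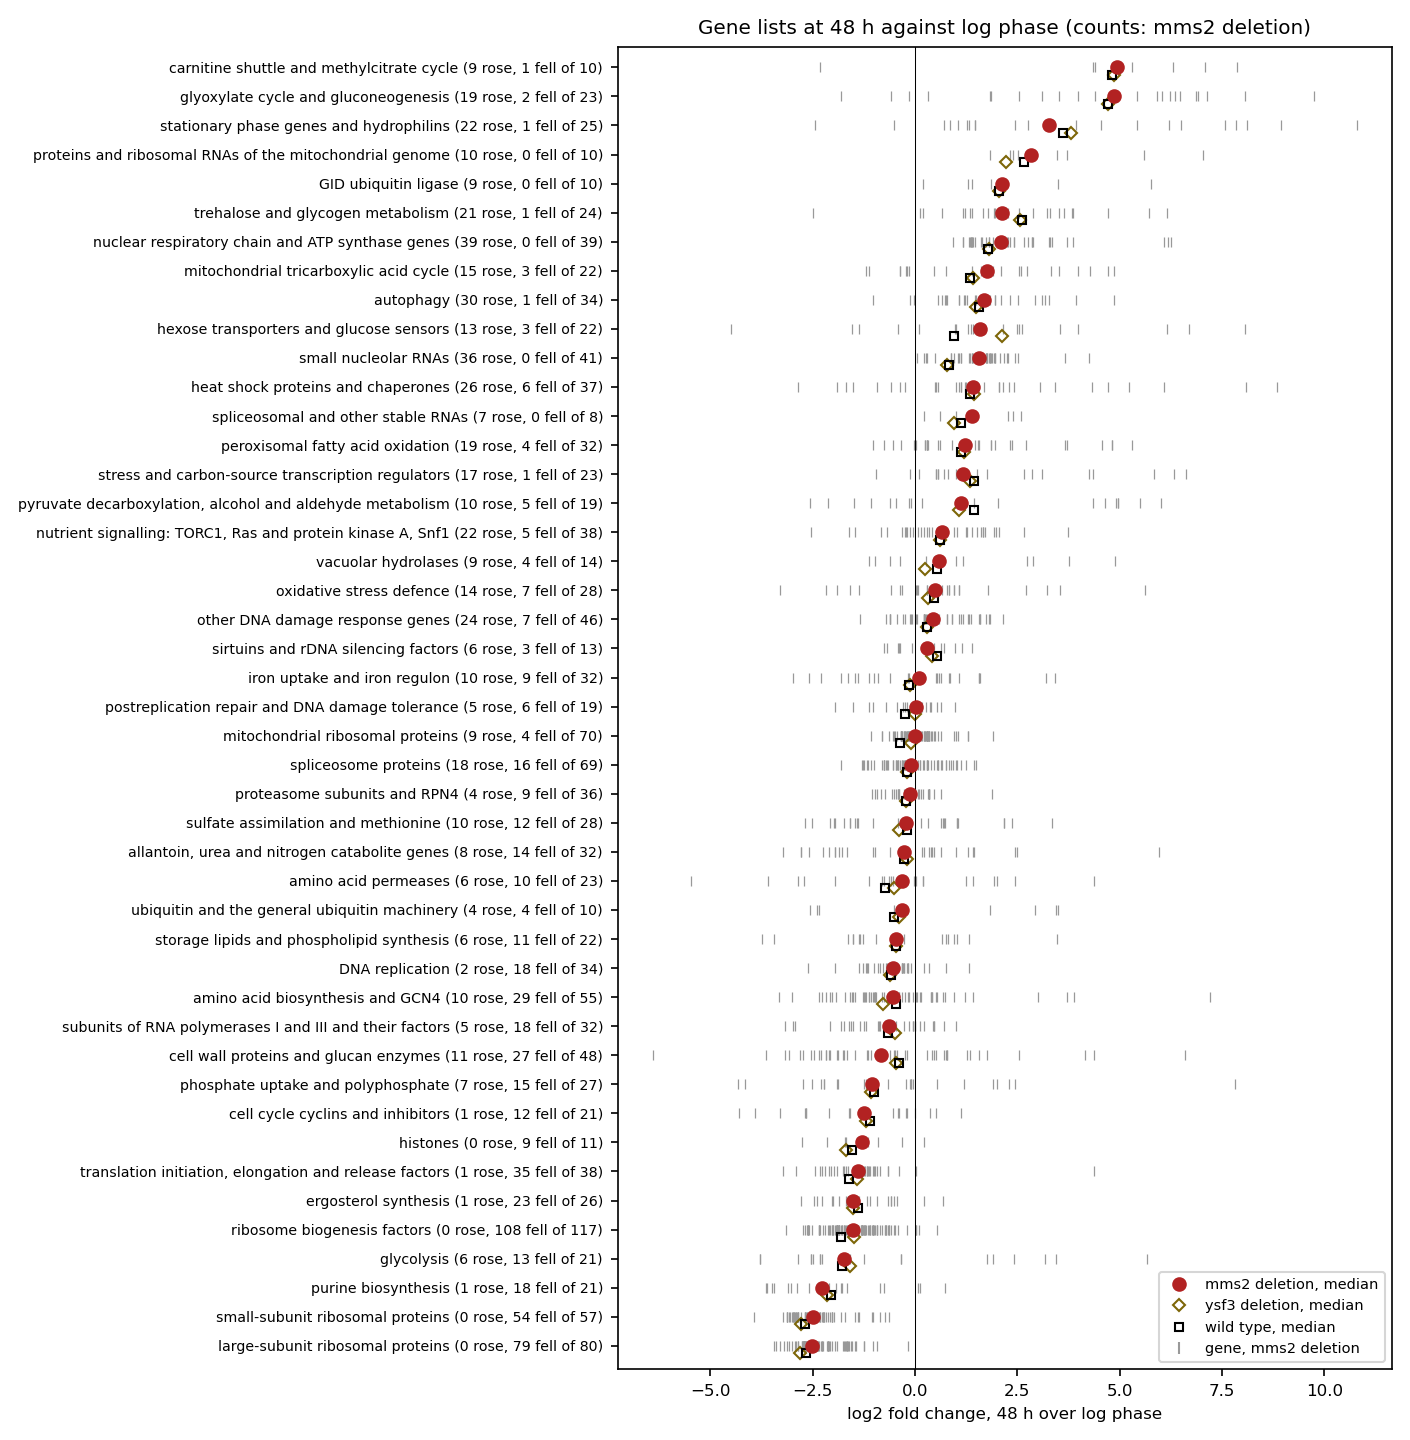
Log2 fold changes at 48 h against log phase on the x axis for 45 gene lists, ordered by their median in the mms2 intron deletion. Grey ticks are single genes and red circles the median of the mms2 intron deletion; open diamonds and squares are the medians of the ysf3 intron deletion and the wild type. The medians run from 4.92 for the carnitine shuttle to -2.52 for large-subunit ribosomal proteins.

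The machinery of protein synthesis fell as a block. Of 80 genes for proteins of the large ribosomal subunit 79 fell and 0 rose, and of 57 for the small subunit 54 fell and 0 rose, with medians of -2.52 and -2.50 on the log2 scale. Together they took 1.22% and 1.39% of counts for the large and 0.672% and 0.768% for the small subunit at 48 h, against 6.34% and 6.20% and 4.42% and 4.31% in log phase. The shares of the large subunit include RPL41A and RPL41B, which were not tested. RPS22A had 74.8 and 96.9 CPM at 48 h, against 1256 and 1387 CPM in log phase, a log2 fold change of -3.94 ± 0.20 (edgeR adjusted p = 1.5e-07). The small-subunit gene of the list with the smallest change, RPS28B, was barely counted, with 0.790 and 3.40 CPM at 48 h and 3.03 and 4.36 CPM in log phase, and had no call (edgeR adjusted p = 0.275). Some members carry an intron themselves: RPL22B had 13.0 and 16 CPM at 48 h, against 64 and 62.1 CPM in log phase, and RPL30, whose protein binds its own transcript, also fell. RPL22B fell by 2.10 ± 0.29 on the log2 scale and RPL30 by 2.03 ± 0.30 (edgeR adjusted p = 8.9e-05 and 1.7e-04).

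Genes that assemble the ribosome fell by less. Of 117 ribosome biogenesis factors 108 fell and 0 rose, with a median log2 fold change of -1.52. NIP7, which acts in assembly of the large subunit, had 14.6 and 19.0 CPM at 48 h, against 171 and 135 CPM in log phase, a log2 fold change of -3.16 ± 0.19 (edgeR adjusted p = 2.8e-07). The nucleolar gene NSR1 had 156 and 132 CPM at 48 h, against 929 and 885 CPM in log phase. The fibrillarin gene NOP1, whose protein methylates ribosomal RNA, had 96.7 and 67.2 CPM at 48 h, against 347 and 480.3 CPM in log phase. Both strains were several-fold lower at 48 h for each of these 3 genes. RNA polymerase I, which transcribes ribosomal DNA, lost transcripts of its subunits: RPA49 fell by 3.19 ± 0.17 and RPA43 by 2.99 ± 0.15 on the log2 scale (edgeR adjusted p = 1.5e-07 and 1.4e-07), while the initiation factor gene RRN3 was at 151 and 119 CPM at 48 h and 138 and 133 CPM in log phase with no call (edgeR adjusted p = 0.967). Over 32 genes of polymerases I and III and their factors 18 fell and 5 rose, with 3 that rose without strain 1 at 48 h or without strain 1 in log phase and 2 without strain 2 in log phase.

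Promoters of the biogenesis genes share sequence elements that the grouping did not use. Windows of 300 bases were read for 5633 genes from the reference, 250 bases before and 50 after the annotated start, which in this annotation is the start of the coding sequence. The PAC element GATGAG, on either strand, was in 106 of 117 biogenesis windows (90.6%) and in 20.1% of all windows. The RRPE element AAATTTT, on either strand, was in 111 of 117 (94.9%) and in 24.0% of all. Both were in 102 of the 117 (87.2%), against 456 of 5633 (8.10%). NIP7 is shown as the biogenesis gene that fell most, on sacCer3 at chrXVI:153245-153544, plus strand, with the PAC element and 3 matches to RRPE in capitals; the last 2 matches lie on opposite strands and overlap by all but 1 base.
NIP7 promoter: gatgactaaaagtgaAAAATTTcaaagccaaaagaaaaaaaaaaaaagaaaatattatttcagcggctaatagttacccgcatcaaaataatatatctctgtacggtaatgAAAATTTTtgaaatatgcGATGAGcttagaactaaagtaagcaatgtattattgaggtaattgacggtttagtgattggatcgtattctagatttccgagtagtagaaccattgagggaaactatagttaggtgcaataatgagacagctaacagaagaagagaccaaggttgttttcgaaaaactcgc
Counted from the start of the coding sequence, PAC begins at base -121 and the RRPE matches at -235, -139 and -138. Outside the biogenesis list 354 genes had both elements, and 194 of them fell (54.8%) and 52 rose, with a median log2 fold change of -0.59. Among all 456 windows with both, 62.9% of genes fell and 11.4% rose, against 27.9% that fell and 36.5% that rose in the 3607 windows with neither. PAC alone went with a median of 0.02 and RRPE alone with -0.16. The windows of ribosomal protein genes were unlike those of the biogenesis genes in PAC, which 8 of 80 large-subunit and 7 of 57 small-subunit windows held.

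Factors of translation fell with the ribosome, 35 of 38 with 1 that rose. The elongation factor gene TEF4 had 164 and 195 CPM at 48 h, against 1695 and 1668 CPM in log phase. The poly(A)-binding protein gene PAB1 had 462 and 549 CPM at 48 h, against 1434 and 1700.5 CPM in log phase. TEF4 fell by 3.22 ± 0.17 and PAB1 by 1.63 ± 0.17 on the log2 scale (edgeR adjusted p = 1.7e-07 and 1.3e-05). The exception was HEF3, the little-used copy of elongation factor 3, with 314 and 286 CPM at 48 h, against 15.4 and 13.5 CPM in log phase, a log2 fold change of 4.38 ± 0.16 (edgeR adjusted p = 2.4e-08). Its partner YEF3 fell by 2.27 ± 0.23 (edgeR adjusted p = 1.0e-05). Per length, HEF3 made up 9.61 ± 1.40% of elongation factor 3 FPKM (the authors' values, scaled to the length of the gene and the size of the library) at 48 h, against 0.105 ± 0.00689% in log phase (mean ± SD of the strains). Of the genes for the cap-binding scaffold eIF4G, TIF4631 fell by 1.33 ± 0.19 on the log2 scale (edgeR adjusted p = 1.2e-04) and TIF4632 was at 340.4 and 314 CPM at 48 h and 295 and 345 CPM in log phase.

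Regulators that read glucose and nutrients rose more often than they fell. In the list of TORC1, Ras, protein kinase A and Snf1 signalling 22 of 38 rose and 5 fell. The kinase gene YAK1, which opposes growth downstream of protein kinase A, had 479 and 435 CPM at 48 h, against 93.1 and 146 CPM in log phase. PDE1, which breaks down cyclic AMP, had 299.9 and 397 CPM at 48 h, against 53.5 and 55.8 CPM in log phase. The Ras inhibitor gene IRA2 had 1024 and 1061 CPM at 48 h, against 306 and 426 CPM in log phase. All 3 proteins act against the Ras and protein kinase A path, and the genes rose by 1.93 ± 0.25, 2.67 ± 0.19 and 1.51 ± 0.20 on the log2 scale (edgeR adjusted p = 7.0e-05, 8.3e-07 and 8.4e-05). RAS1 fell by 2.54 ± 0.13 (edgeR adjusted p = 1.5e-07), and RAS2 was at 246 and 215 CPM at 48 h and 284 and 257 CPM in log phase with no call (edgeR adjusted p = 0.177). TOR1, SCH9 and SNF1, the kinases at the head of these paths, had no call, with log2 fold changes of 0.30, 0.62 and 0.06. REG2, a glucose-repression subunit of protein phosphatase 1, rose by 3.73 ± 0.20 (edgeR adjusted p = 1.8e-07), with 176 and 183 CPM at 48 h, against 12.3 and 14.7 CPM in log phase. The repressor genes MIG1 and MIG2 moved apart: MIG1 rose by 1.61 ± 0.35 and MIG2 fell by 1.62 ± 0.26 (edgeR adjusted p = 0.00208 and 2.8e-04).

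Transcription factors of stress and of carbon sources other than glucose rose, 17 of 23 with 1 that fell. CAT8, the activator of gluconeogenesis, had 678 and 779.9 CPM at 48 h, against 10.2 and 8.05 CPM in log phase. SIP4, which binds the same carbon source elements, had 245 and 256 CPM at 48 h, against 3.12 and 2.03 CPM in log phase. ADR1, the activator of ethanol and fatty acid use, had 544 and 646 CPM at 48 h, against 28.8 and 33.9 CPM in log phase. Their log2 fold changes were 6.32 ± 0.22, 6.61 ± 0.23 and 4.25 ± 0.24 (edgeR adjusted p = 2.4e-08, 1.5e-08 and 3.3e-07). XBP1, a stress-induced repressor, rose by 5.83 ± 0.34 (edgeR adjusted p = 1.8e-07), the stress regulator USV1 by 4.35 ± 0.22 (1.2e-07), and GIS1, a postdiauxic activator, by 3.10 ± 0.27 (3.9e-06). Of the paired stress activators, MSN4 had 167 and 207 CPM at 48 h, against 60.1 and 72.0 CPM in log phase, and rose by 1.5 ± 0.18 (edgeR adjusted p = 3.0e-05), and MSN2 had 122 and 104 CPM at 48 h, against 77.6 and 81.1 CPM in log phase, with no call (edgeR adjusted p = 0.0859). TOD6, which binds PAC elements and represses biogenesis genes, fell by 0.95 ± 0.14 (edgeR adjusted p = 1.7e-04), and its partner DOT6 had 213 and 179 CPM at 48 h and 84.4 and 141 CPM in log phase with no call (edgeR adjusted p = 0.101).

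The stress element AGGGG, which Msn2 and Msn4 bind, was in 31.5% of windows of genes that rose, in 14.7% of those that fell and in 21.7% of all 5633, on either strand. Genes with 0 such sites had a median log2 fold change of -0.09 (4413 genes), those with 1 had 0.37 (1058 genes) and those with at least 2 had 0.84 (162 genes), of which 59.9% rose and 12.3% fell. Of the 284 windows of genes that rose at least 8-fold, 42.6% held a stress element and 7.39% the Mig1 core CCCCGC, against 2.52% of all windows for the core. The carbon source element that Cat8 and Sip4 bind was in 4.04% of windows that rose, 3.33% that fell and 3.5% of all. HSP12, among the genes that rose most, is shown with its 2 stress elements in capitals, both read from the other strand as CCCCT, on sacCer3 at chrVI:107006-107305, plus strand.
HSP12 promoter: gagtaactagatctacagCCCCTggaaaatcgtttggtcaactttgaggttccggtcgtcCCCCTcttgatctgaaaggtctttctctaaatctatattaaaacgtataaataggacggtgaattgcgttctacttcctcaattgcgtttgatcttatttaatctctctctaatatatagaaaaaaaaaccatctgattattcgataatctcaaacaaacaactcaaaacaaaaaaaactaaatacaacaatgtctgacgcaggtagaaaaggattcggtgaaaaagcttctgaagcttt
The sites begin at bases -232 and -190 from the start of the coding sequence. In the stationary phase list 6 of 25 windows held a stress element (24.0%), among heat shock proteins and chaperones 15 of 37 (40.5%) and among trehalose and glycogen genes 11 of 24 (45.8%).

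**Figure D3:**
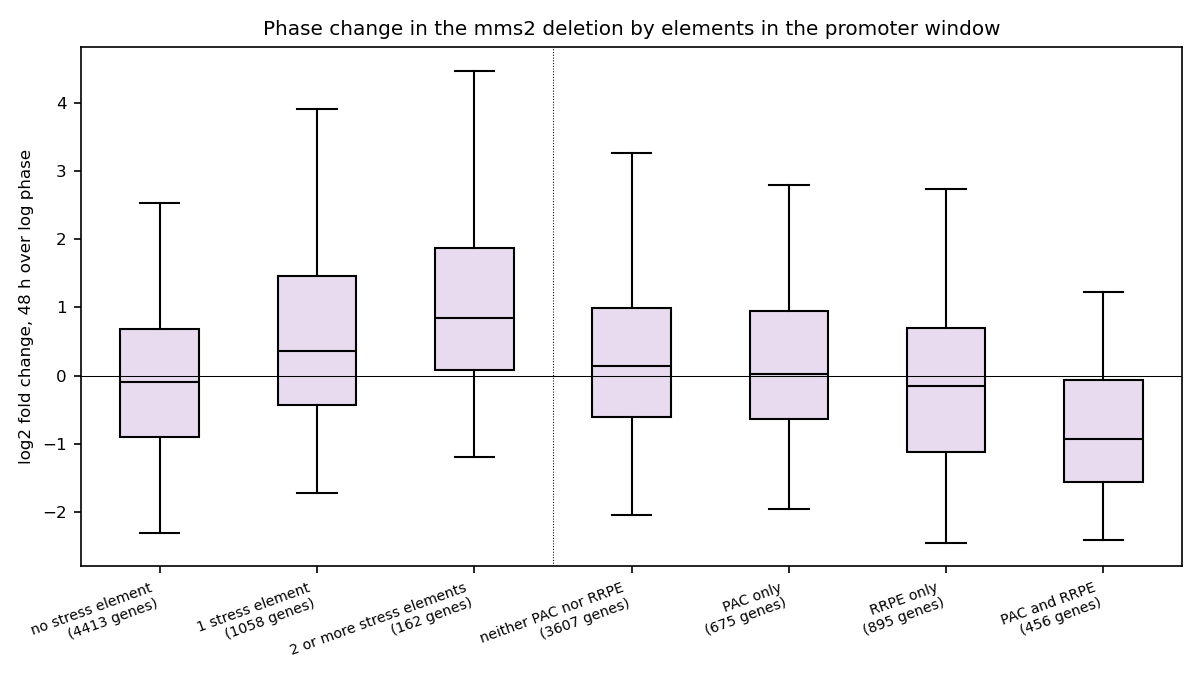
Log2 fold changes at 48 h against log phase in the mms2 intron deletion on the y axis, by elements found in the 300-base promoter window. Boxes span the interquartile range of the genes with the median as a line, and whiskers reach the 5th and 95th percentiles; medians climb with the number of stress elements (-0.09, 0.37, 0.84) and are lowest, at -0.92, where PAC and RRPE occur together.

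Genes of glucose uptake moved apart by carrier. In the list of hexose transporters and sensors 13 of 22 rose and 3 fell, and without strain 2 at 48 h 8 rose. HXT1 and HXT3, the low-affinity carriers of high glucose, fell by 4.50 ± 0.26 and 1.54 ± 0.20 on the log2 scale (edgeR adjusted p = 2.7e-07 and 6.6e-05). HXT4 rose by 3.53 ± 0.44 and the sensor gene SNF3 by 2.15 ± 0.19 (edgeR adjusted p = 7.0e-05 and 3.9e-06), and HXT2 was at 109 and 120.3 CPM at 48 h and 152 and 155 CPM in log phase with no call (edgeR adjusted p = 0.306). Summed over 7 transporter genes, FPKM was 1099.5 and 1148 at 48 h, against 1555 and 1528 in log phase, and HXT5 held 40.9 ± 1.38% of it at 48 h, against 0.113 ± 0.00497% in log phase. HXT3 still held 40.0 ± 2.45% at 48 h, against 86.1 ± 0.105% in log phase. HXT6 and HXT7 have nearly the same sequence, so their levels of 28.8 to 44.9 CPM at 48 h and 0.226 to 0.827 CPM in log phase are uncertain as to the copy.

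Glycolysis fell in its main genes and rose in side forms, with 13 of 21 lower and 6 higher. Hexokinase shifted most: HXK2, the form of glucose growth, had 259 and 329 CPM at 48 h, against 1643 and 1806 CPM in log phase. HXK1 had 889.7 and 1069 CPM at 48 h, against 14.8 and 23.9 CPM in log phase, and the glucokinase gene GLK1 had 1120.1 and 1511 CPM at 48 h, against 115 and 176 CPM in log phase. Per length, HXK2 made 11.5 ± 0.0848% of the 3 genes' FPKM at 48 h, against 91.6 ± 1.82% in log phase, and the sum stayed within 1179.5 and 1796 FPKM over the 4 libraries. Enolase shifted in the same way by loss of 1 form: ENO2 fell by 3.78 ± 0.27 on the log2 scale (edgeR adjusted p = 1.5e-06), ENO1 had 811 and 1128 CPM at 48 h and 1123 and 1328 CPM in log phase with no call (edgeR adjusted p = 0.283), and ENO1 made 73.2 ± 1.89% of enolase FPKM at 48 h, against 20.6 ± 2.77% in log phase. Pyruvate kinase CDC19 fell by 2.33 ± 0.30 and its low-glucose form PYK2 rose by 1.89 ± 0.20 (edgeR adjusted p = 6.9e-05 and 1.6e-05), though CDC19 still made 91.0 ± 1.43% of the pair's FPKM at 48 h, against 99.5 ± 0.0228% in log phase. Aldolase FBA1 and phosphoglycerate kinase PGK1, which have no second form, fell by 2.86 ± 0.26 and 2.33 ± 0.23 (edgeR adjusted p = 6.6e-06 and 1.0e-05).

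**Figure D4:**
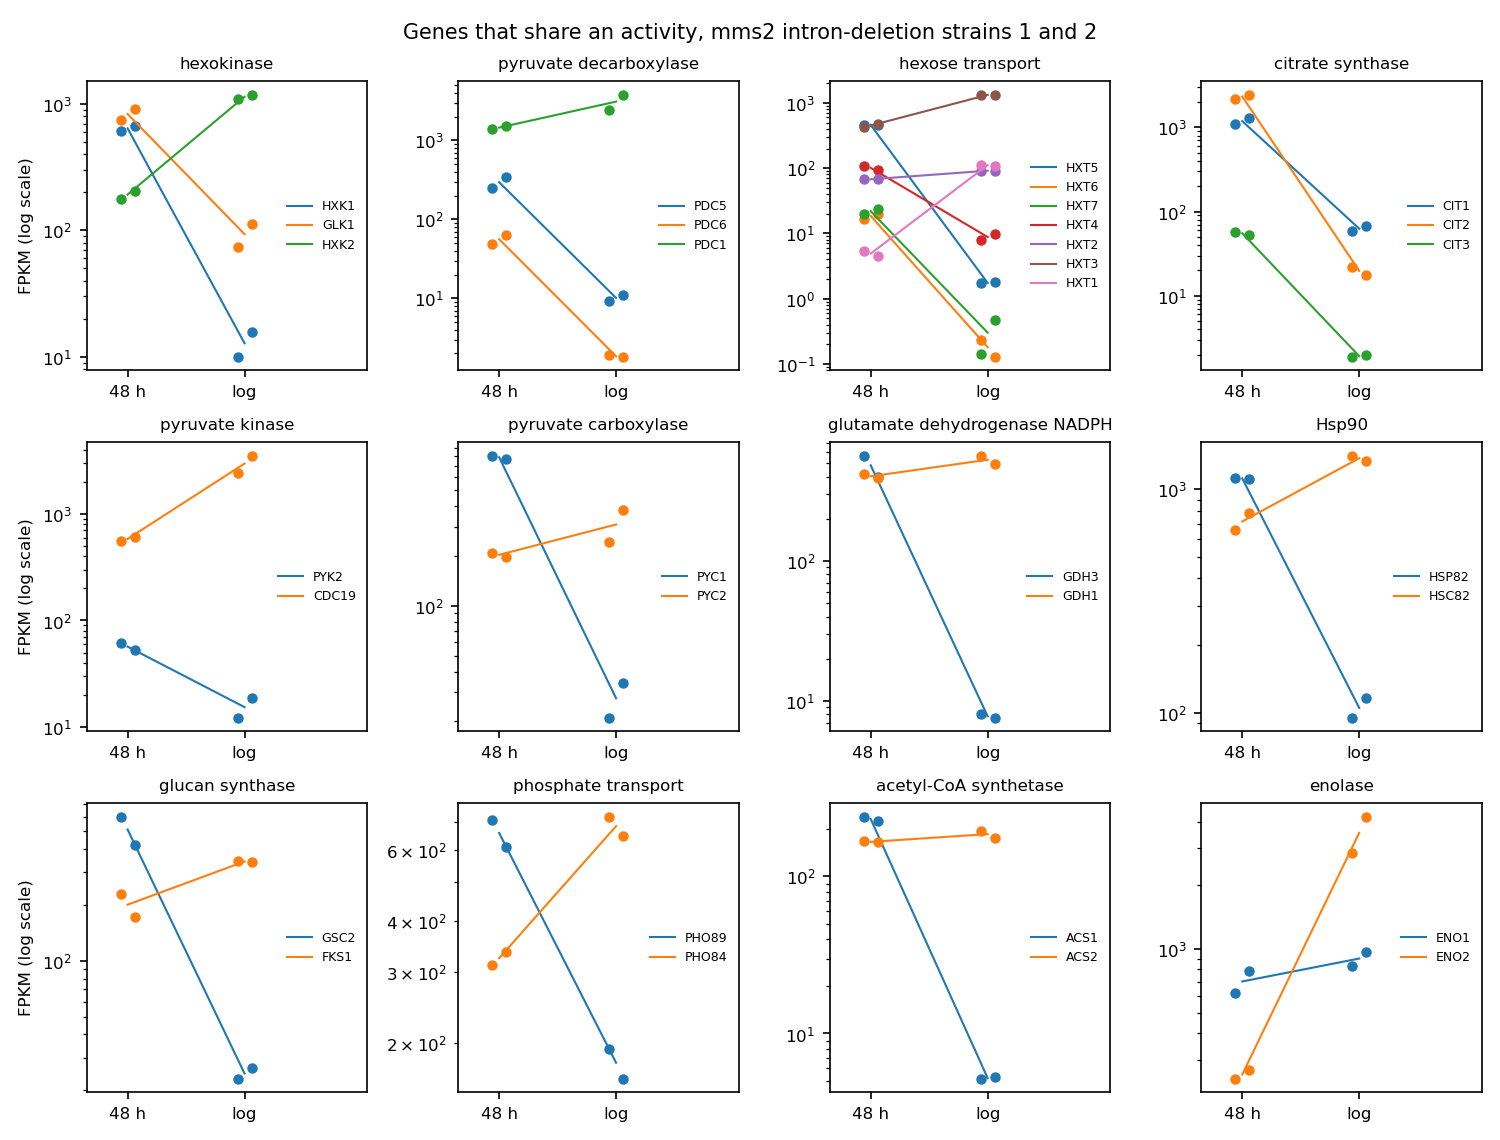
FPKM on a log scale for genes that share an activity, in the mms2 intron deletion at 48 h (left) and in log phase (right) in each panel; each pair of points is strain 1 and strain 2 and lines join the means. Of the genes that were low in log phase, some, such as HXK1, CIT2, GDH3, HSP82, GSC2 and ACS1, lie near or above their partners at 48 h. Others rose but stay below them, such as PYK2 below CDC19, and PDC5 and PDC6 below PDC1. HXT6 and HXT7 have nearly the same sequence and their levels are uncertain.

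Genes of pyruvate decarboxylation and of alcohol and aldehyde metabolism moved in both directions, with 10 of 19 higher and 5 lower. Of all genes 33.4% were higher and 30.7% lower. ADH1, the fermentative alcohol dehydrogenase, had 791 and 1052 CPM at 48 h, against 5356 and 5645 CPM in log phase. ADH2, which oxidises ethanol, had 51.1 and 64.1 CPM at 48 h, against 1.97 and 1.73 CPM in log phase, and still made only 5.91 ± 0.236% of the pair's FPKM at 48 h, against 0.0337 ± 0.00431% in log phase. ALD4, the mitochondrial acetaldehyde dehydrogenase, had 891 and 781 CPM at 48 h, against 36.7 and 45.8 CPM in log phase. ADH1 fell by 2.58 ± 0.24, and ADH2 and ALD4 rose by 4.96 ± 0.31 and 4.34 ± 0.22 on the log2 scale (edgeR adjusted p = 7.4e-06, 3.1e-07 and 1.5e-07). ACS1, the acetyl-CoA synthetase of growth without glucose, made 58.3 ± 0.827% of the ACS1 and ACS2 FPKM at 48 h, against 2.72 ± 0.270% in log phase, and ACS2 was not called (edgeR adjusted p = 0.306). The pyruvate decarboxylase genes PDC5 and PDC6 rose by 4.90 ± 0.39 and 4.95 ± 0.42 (edgeR adjusted p = 3.9e-06 and 3.4e-06), and PDC1 fell by 1.08 ± 0.34 (0.0170), a call lost without strain 1 at 48 h (0.0968) or without strain 2 in log phase (0.144).

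The glyoxylate cycle, which builds sugar precursors from acetate, and gluconeogenesis held some of the largest rises: 19 of 23 genes rose and 2 fell, with 1 that fell with strain as a block, without either 48 h library or without strain 2 in log phase. Isocitrate lyase ICL1 had 1333 and 1662 CPM at 48 h, against 32.1 and 37.2 CPM in log phase. PCK1, the first enzyme of gluconeogenesis, had 346 and 478 CPM at 48 h, against 3.20 and 3.91 CPM in log phase, and FBP1, the last regulated enzyme of it, had 60.4 and 86.7 CPM at 48 h, against 0.902 and 1.05 CPM in log phase. They rose by 5.43 ± 0.24, 6.85 ± 0.20 and 6.22 ± 0.32 on the log2 scale (edgeR adjusted p = 1.1e-07, 7.3e-09 and 7.3e-08). The lactate and pyruvate carrier gene JEN1 rose by 7.12 ± 0.24 (edgeR adjusted p = 2.0e-08). Forms shifted here too. Of citrate synthase FPKM the peroxisomal form CIT2 made 65.2 ± 0.879% at 48 h, against 23.5 ± 4.65% in log phase, and the sum of the 3 forms was 3346 and 3796 FPKM at 48 h, against 81.9 and 86.9 FPKM in log phase. PYC1 made 79.5 ± 0.131% of pyruvate carboxylase FPKM at 48 h, against 8.14 ± 0.281% in log phase. Of the GID ubiquitin ligase, which degrades gluconeogenic enzymes when glucose returns, 9 of 10 genes rose and 0 fell, led by its substrate receptor GID10, with 63.0 and 36.6 CPM at 48 h, against 1.15 and 0.677 CPM in log phase.

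The carnitine shuttle, which carries acetyl groups into mitochondria, and the methylcitrate cycle had the highest median of any list, 4.92, with 9 of 10 genes higher and 1 lower. YAT1, a carnitine acetyltransferase at the mitochondrial surface, had 579 and 552 CPM at 48 h, against 4.26 and 4.06 CPM in log phase. CRC1, the mitochondrial carnitine carrier, had 107 and 98.7 CPM at 48 h, against 0.656 and 0.226 CPM in log phase. PDH1, which works on methylcitrate, had 559 and 536 CPM at 48 h, against 7.38 and 6.54 CPM in log phase. YAT1 and PDH1 rose by 7.08 ± 0.14 and 6.30 ± 0.13 on the log2 scale (edgeR adjusted p = 1.2e-09 for both), among the tightest changes of all named genes. Peroxisomal oxidation of fatty acids, the other source of acetyl groups, rose in 19 of 32 genes. The acyl-CoA oxidase gene POX1, the thiolase gene POT1 and the importer gene PXA1 rose by 4.57 ± 0.24, 4.81 ± 0.38 and 3.66 ± 0.19 (edgeR adjusted p = 1.5e-07, 1.5e-06 and 1.5e-07), and 4 genes of the list fell, with 1 that fell without strain 1 at 48 h and 2 without any other library or with strain as a block.

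Respiration rose as a whole. All 39 tested nuclear genes for the respiratory chain and ATP synthase rose, by 0.93 to 6.26 on the log2 scale with a median of 2.10, and 37 rose in the ysf3 intron deletion and 37 in the wild type (35 without wild-type strain 1). QCR10, a subunit of the cytochrome bc1 complex, had 91.4 and 101 CPM at 48 h, against 8.20 and 10.6 CPM in log phase. INH1, which inhibits the ATP synthase when membrane potential falls, had 82.1 and 102 CPM at 48 h, against 5.0 and 7.75 CPM in log phase. With NDE2, an NADH dehydrogenase of the outer face of the inner membrane, the 3 genes rose by 3.35 ± 0.16, 3.85 ± 0.24 and 6.26 ± 0.34 (edgeR adjusted p = 8.9e-08, 3.7e-07 and 1.1e-07). Cytochrome c changed form: CYC7 made 62.9 ± 9.30% of the FPKM of CYC7 and CYC1 at 48 h, against 14.0 ± 1.45% in log phase, and both rose. In the tricarboxylic acid cycle 15 of 22 genes rose and 3 fell, with SDH1 at 4.72 ± 0.22 and CIT1 at 4.26 ± 0.18 (edgeR adjusted p = 1.2e-07 and 6.5e-08). HAP4, the regulated subunit of the activator of respiratory genes, had 647 and 977 CPM at 48 h, against 124 and 131 CPM in log phase, and rose by 2.67 ± 0.21 (edgeR adjusted p = 1.9e-06).

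That activator binds CCAAT boxes, and the box was in 31 of the 39 respiratory windows (79.5%) on either strand, against 43.7% of all windows. A stress element was in 20 of the 39 (51.3%) and both were in 16. QCR10 is shown as a gene with both, on sacCer3 at chrVIII:107576-107875, plus strand, with the CCAAT box and the stress element AGGGG in capitals.
QCR10 promoter: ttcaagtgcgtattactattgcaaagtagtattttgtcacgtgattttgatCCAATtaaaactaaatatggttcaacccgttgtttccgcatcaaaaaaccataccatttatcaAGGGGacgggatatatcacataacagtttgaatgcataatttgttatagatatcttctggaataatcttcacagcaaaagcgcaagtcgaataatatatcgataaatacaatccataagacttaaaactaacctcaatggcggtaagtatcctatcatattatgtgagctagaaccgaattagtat
The box begins at base -199 and the stress element at -136. Among all windows the box by itself went with no shift, since 33.0% of the 2464 genes with it rose and 33.8% fell, with a median of -0.03.

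Genes of the mitochondrial genome rose too, 10 of 10 tested. COX3 had 4428 and 7007 CPM at 48 h, against 392 and 479 CPM in log phase, and COX2 had 2106 and 3832 CPM at 48 h, against 408 and 444 CPM in log phase. ATP6 had 2255 and 3991 CPM at 48 h, against 549 and 708 CPM in log phase. The 3 rose by 3.71 ± 0.35, 2.80 ± 0.38 and 2.31 ± 0.30 on the log2 scale (edgeR adjusted p = 9.4e-06, 1.2e-04 and 6.7e-05). Of 70 nuclear genes for mitochondrial ribosomal proteins 9 rose and 4 fell, with a median of 0.00, beside 7 and 25 with a median of -0.37 in the wild type (5 and 18 with -0.26 without wild-type strain 1). Without strain 1 at 48 h 1 of the 70 fell, and without either log-phase library 2 did.

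Genes of survival in stationary phase were at 3.28 in the median, with 22 of 25 higher and 1 lower. TMA10 had 617 and 475 CPM at 48 h, against 6.23 and 5.87 CPM in log phase. YNL194C, a membrane protein of eisosomes, had 154 and 162 CPM at 48 h, against 0.820 and 0.827 CPM in log phase. SPG1, needed to survive stationary phase at high temperature, had 36.5 and 33.5 CPM at 48 h, against 0.246 and 0.677 CPM in log phase. TMA10 and YNL194C rose by 6.49 ± 0.22 and 7.56 ± 0.36 (edgeR adjusted p = 1.8e-08 and 2.5e-08). Not all genes linked to this state changed: SNO1, of vitamin B6 synthesis, had 41.9 and 51.3 CPM at 48 h and 70.8 and 63.8 CPM in log phase with no call (edgeR adjusted p = 0.0887), and its neighbour SNZ1 rose by 1.27 ± 0.19 (1.8e-04).

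Chaperone genes moved in both directions. In the list 26 of 37 rose and 6 fell, beside 33.4% and 30.7% of all genes. HSP82, the inducible Hsp90, had 2387 and 2593 CPM at 48 h, against 206 and 259 CPM in log phase, and HSC82, the form of growing cells, had 1385 and 1808 CPM at 48 h, against 3077 and 2963 CPM in log phase. HSP82 rose by 3.42 ± 0.19 and HSC82 fell by 0.92 ± 0.21 (edgeR adjusted p = 2.5e-07 and 0.00322), and HSP82 made 61.0 ± 3.09% of their FPKM at 48 h, against 7.12 ± 1.23% in log phase. The sum of the pair was 1779 and 1895 FPKM at 48 h, against 1509 and 1458 FPKM in log phase. SSB1, a chaperone bound to translating ribosomes and nearly identical to SSB2, fell by 2.85 ± 0.22 (edgeR adjusted p = 1.6e-06), and the disaggregase HSP104 rose by 1.49 ± 0.26 (4.9e-04). SSA1 and SSA2 have nearly the same sequence, and their opposite changes of 1.25 ± 0.30 and -1.53 ± 0.21 are uncertain for that reason. HSP30, of the plasma membrane, had 868 and 1278 CPM at 48 h, against 45.3 and 36.5 CPM in log phase.

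Reserve carbohydrate genes rose in both directions of the pathway, 21 of 24 with 1 that fell. The trehalose synthase subunit TSL1 had 822 and 872 CPM at 48 h, against 49.7 and 85.7 CPM in log phase, and NTH1, which degrades trehalose, had 1529 and 1309.6 CPM at 48 h, against 233 and 258 CPM in log phase. GAC1, which targets a phosphatase to glycogen synthase, had 335 and 297 CPM at 48 h, against 3.85 and 5.04 CPM in log phase. GPH1, which breaks glycogen down, had 229 and 314 CPM at 48 h, against 20.1 and 27.1 CPM in log phase. The log2 fold changes were 3.64 ± 0.31, 2.53 ± 0.15, 6.15 ± 0.28 and 3.52 ± 0.26 (edgeR adjusted p = 4.9e-06, 3.2e-07, 8.9e-08 and 1.6e-06). SGA1, a glucoamylase known from sporulation, rose by 5.72 ± 0.34 (edgeR adjusted p = 1.6e-07).

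Antioxidant genes moved both ways, 14 of 28 higher and 7 lower, beside 33.4% and 30.7% of all genes. The cytosolic catalase gene CTT1 had 359.9 and 371 CPM at 48 h, against 6.07 and 8.72 CPM in log phase, and rose by 5.62 ± 0.28 (edgeR adjusted p = 1.6e-07). The mitochondrial peroxiredoxin PRX1 rose by 3.23 ± 0.22, and the cytosolic peroxiredoxin TSA1 and the thioredoxin reductase TRR1 fell by 1.59 ± 0.14 and 1.90 ± 0.14 (edgeR adjusted p = 8.8e-07, 3.3e-06 and 9.8e-07). Autophagy, which recycles cell contents, rose in 30 of 34 genes with 1 that fell, among them the ubiquitin-like ATG8 and ATG39, a receptor for the nuclear envelope, with 203 and 259 CPM at 48 h, against 6.81 and 9.10 CPM in log phase. Their log2 fold changes were 3.94 ± 0.21 and 4.86 ± 0.17 (edgeR adjusted p = 1.7e-07 and 1.8e-08). The vacuolar protease PRB1 rose by 3.75 ± 0.27 and the mannosidase AMS1 by 4.88 ± 0.15 (edgeR adjusted p = 1.5e-06 and 1.4e-08), and carboxypeptidase PRC1 had 336 and 421 CPM at 48 h and 305 and 326 CPM in log phase with no call (edgeR adjusted p = 0.200). The stress-induced polyubiquitin gene UBI4 had 1753 and 2042 CPM at 48 h, against 158 and 188 CPM in log phase, and rose by 3.45 ± 0.19 (edgeR adjusted p = 2.2e-07). In the list of proteasome subunits and their activator RPN4, 4 of 36 genes were higher and 9 lower, with a median of -0.13. All genes had shares of 33.4% higher and 30.7% lower. The list had 2 higher and 5 lower without strain 1 at 48 h, and 2 higher without strain 2 in log phase. RPN4 is itself among the 4 that were higher, and rose by 1.88 ± 0.15 (edgeR adjusted p = 1.5e-06).

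Biosynthesis for growth was lower. Of 21 purine genes 18 fell and 1 rose: ADE17, of the last steps to IMP, had 160.1 and 178 CPM at 48 h, against 2079.7 and 2061 CPM in log phase, a log2 fold change of -3.61 ± 0.18 (edgeR adjusted p = 1.5e-07). Of 26 ergosterol genes 23 fell and 1 rose. The target of azole drugs, ERG11, had 225 and 256 CPM at 48 h, against 1249 and 1078 CPM in log phase, a log2 fold change of -2.27 ± 0.16 (edgeR adjusted p = 9.5e-07). The 1 that rose was UPC2, the sterol sensor that activates the others, with a log2 fold change of 0.67 ± 0.14 (edgeR adjusted p = 0.00124). Fatty acid synthase FAS1 fell by 1.51 ± 0.22 and the elongase ELO3 by 3.74 ± 0.28 (edgeR adjusted p = 1.5e-04 and 1.6e-06), and among lipid genes INO1, of inositol synthesis, rose by 3.46 ± 0.35 (1.6e-05), with 1202 and 1645 CPM at 48 h, against 97.2 and 161 CPM in log phase.

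Nitrogen metabolism moved in both directions. Of 32 genes of nitrogen catabolite control and allantoin use 8 rose and 14 fell, beside 33.4% and 30.7% of all genes. GDH2, which releases ammonia from glutamate, had 403 and 607 CPM at 48 h, against 4839 and 4627 CPM in log phase, and glutamine synthetase GLN1 had 1239 and 1543 CPM at 48 h, against 6358 and 5599.9 CPM in log phase. GDH3, the glutamate synthesis form of growth without glucose, had 775 and 599 CPM at 48 h, against 11.3 and 10.8 CPM in log phase. The log2 fold changes were -3.23 ± 0.26, -2.10 ± 0.20 and 5.96 ± 0.19 (edgeR adjusted p = 2.7e-06, 7.5e-06 and 1.6e-08). GDH3 thus made 54.1 ± 4.83% of the FPKM of GDH3 and GDH1 at 48 h, against 1.45 ± 0.0589% in log phase. The urea amidolyase gene DUR12 had 678 and 428 CPM at 48 h, against 3770.5 and 3872 CPM in log phase, and the ammonium transporter gene MEP2 had 459 and 367 CPM at 48 h, against 2106 and 1848 CPM in log phase. The general amino acid permease GAP1 had 260.4 and 218 CPM at 48 h, against 2958 and 2861 CPM in log phase, a log2 fold change of -3.60 ± 0.16 (edgeR adjusted p = 5.8e-08), and BAP2, for branched-chain amino acids, had 1596 and 1455 CPM at 48 h, against 81.7 and 67.2 CPM in log phase, a log2 fold change of 4.36 ± 0.22 (1.8e-07). The oligopeptide transporter gene OPT2 was among the deepest falls of all, with 30.4 and 34.9 CPM at 48 h, against 1458 and 1455 CPM in log phase. The element GATAAG, bound by the nitrogen regulators, was in 14 of the 32 windows of the nitrogen list (43.8%), against 14.5% of all.

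Amino acid synthesis fell in 29 of 55 genes and rose in 10. LEU1, of leucine synthesis, stood out on the upper side with 5258 and 8153 CPM at 48 h, against 582 and 442 CPM in log phase, a log2 fold change of 3.71 ± 0.33 (edgeR adjusted p = 6.9e-06). ARO10, which decarboxylates the keto acids of amino acid breakdown, had 242 and 257 CPM at 48 h, against 2.13 and 1.28 CPM in log phase, and ARO9, the transaminase before it, had 270.1 and 252 CPM at 48 h, against 30.7 and 35.1 CPM in log phase. Asparagine synthetase ASN1 fell by 2.35 ± 0.21 (edgeR adjusted p = 3.9e-06). GCN4, the activator of this pathway that is controlled in translation, had 336 and 488 CPM at 48 h and 416 and 387 CPM in log phase with no call (edgeR adjusted p = 0.910). Methionine synthase MET6 fell by 2.08 ± 0.26 and S-adenosylmethionine synthetase SAM1 by 2.51 ± 0.27 (edgeR adjusted p = 5.1e-05 and 1.7e-05), and MET28, a cofactor of the sulfur regulators, rose by 3.34 ± 0.28 (3.4e-06).

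Phosphate genes fell in 15 of 27 and rose in 7. The acid phosphatases PHO5, PHO3 and PHO12 fell by 2.74 ± 0.34, 4.15 ± 0.28 and 4.32 ± 0.36 on the log2 scale (edgeR adjusted p = 5.1e-05, 5.7e-07 and 2.7e-06), though PHO12 and PHO11 share most of their sequence. The carriers moved apart: PHO84 had 548 and 648 CPM at 48 h, against 1309.9 and 1191 CPM in log phase, and the sodium-coupled PHO89 had 1224 and 1145 CPM at 48 h, against 343 and 294 CPM in log phase. PHO89 made 67.0 ± 3.63% of the pair's FPKM at 48 h, against 20.6 ± 0.706% in log phase. Of 32 iron genes 10 were higher and 9 lower, beside 33.4% and 30.7% of all genes, with a median of 0.09 beside 0.06. With strain as a block 10 were higher and 8 lower, and fewer were called higher without strain 2 at 48 h. The high-affinity oxidase FET3 fell by 2.60 ± 0.50 (edgeR adjusted p = 0.00135), with 80.4 and 87.0 CPM at 48 h, against 289 and 729 CPM in log phase, and ISU1, the scaffold of iron-sulfur clusters, rose by 3.20 ± 0.21 (6.5e-07).

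Cell wall genes fell in 27 of 48 cases and rose in 11. UTR2, a chitin-glucan transglycosylase, fell more than any other gene with a mean of at least 10 CPM, with 11.8 and 11.1 CPM at 48 h, against 983 and 958 CPM in log phase, a log2 fold change of -6.41 ± 0.17 (edgeR adjusted p = 7.3e-09). The chitinase gene CTS1, which acts in separation of daughter cells, had 173 and 149 CPM at 48 h, against 768 and 877 CPM in log phase, and DSE2 had 17 and 15.8 CPM at 48 h, against 114 and 116 CPM in log phase. The glucan synthase of sporulation and stress, GSC2, had 3409 and 2637 CPM at 48 h, against 134 and 156 CPM in log phase, and made 71.8 ± 0.872% of the FPKM of GSC2 and FKS1 at 48 h, against 6.68 ± 0.690% in log phase. GSC2 and the wall protein genes PIR3 and SED1 rose by 4.38 ± 0.28, 6.60 ± 0.28 and 4.15 ± 0.49 (edgeR adjusted p = 7.3e-07, 3.8e-08 and 7.1e-05). FKS1 fell by 0.77 ± 0.20 (edgeR adjusted p = 0.00652), a call lost without strain 2 at 48 h (0.0560).

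Division genes fell. The mitotic cyclin genes CLB2 and CLB1 had 4.54 and 4.82 CPM and 6.71 and 5.96 CPM at 48 h, against 101 and 85.4 CPM and 103 and 86.9 CPM in log phase. The G1 cyclin gene CLN1 had 10.5 and 8.37 CPM at 48 h, against 55.8 and 61.0 CPM in log phase. CLB2, CLB1 and CLN1 fell by 4.30 ± 0.29, 3.92 ± 0.18 and 2.66 ± 0.17 (edgeR adjusted p = 5.3e-07, 7.0e-08 and 3.8e-07), and CLN3, the cyclin that starts the cycle, had no call, with a log2 fold change of -0.39 (edgeR adjusted p = 0.474). In all 12 of 21 cyclin and inhibitor genes fell. Of 11 histone genes 9 fell and 0 rose: HTA2 had 8.69 and 11.0 CPM at 48 h, against 63.1 and 72.8 CPM in log phase, and the linker histone gene HHO1 had 39.7 and 43.4 CPM at 48 h and 52.6 and 51.4 CPM in log phase with no call (edgeR adjusted p = 0.0783). HO, the mating-type endonuclease, which is made late in G1, fell by 4.43 ± 0.39 (edgeR adjusted p = 3.9e-06), with 4.15 and 5.11 CPM at 48 h, against 106 and 99.3 CPM in log phase. Meiosis and sporulation genes were counted low, and 14 of 25 rose and 2 fell: IME1, the inducer of meiosis, had 21.9 and 12.6 CPM at 48 h, against 4.26 and 4.44 CPM in log phase, and the recombination gene SPO11 had 1.38 and 1.84 CPM at 48 h and 3.28 and 2.86 CPM in log phase.

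Genes of the path in which Mms2 works moved in both directions. Of 19 genes of postreplication repair and damage tolerance 5 rose and 6 fell, with a median of 0.02, beside the 33.4% and 30.7% of all genes, and 2 or 3 rose when any 1 of the 4 libraries was left out. UBC13, the partner of Mms2, had 26.7 and 35.5 CPM at 48 h and 37.1 and 34.8 CPM in log phase, and RAD18, the ligase that first marks PCNA, had 24.1 and 20.9 CPM at 48 h and 20.8 and 19.3 CPM in log phase. Neither was called (edgeR adjusted p = 0.457 and 0.405), and UBC13 overlapped between the phases. RAD5, the ligase that recruits Mms2 and Ubc13 to PCNA, had 124 and 109 CPM at 48 h, against 60.5 and 57.5 CPM in log phase, and rose by 0.98 ± 0.14 (edgeR adjusted p = 1.2e-04). Their substrate, the PCNA gene POL30, had 5.73 and 8.51 CPM at 48 h, against 26.8 and 30.6 CPM in log phase, and fell by 1.97 ± 0.29 (edgeR adjusted p = 1.4e-04). RAD6, the conjugating enzyme that works with Rad18, rose by 0.37 ± 0.15 (edgeR adjusted p = 0.0499), the polymerase gene RAD30 by 0.39 ± 0.15 (0.0375) and the SUMO ligase gene SIZ1 by 0.54 ± 0.21 (0.0438). These 3 calls were lost with strain as a block (edgeR adjusted p = 0.0959, 0.0810 and 0.0685).

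Error-prone bypass differed by subunit. REV3, the catalytic subunit of polymerase zeta, had 91.4 and 104 CPM at 48 h, against 66.9 and 60.2 CPM in log phase, and rose by 0.62 ± 0.12 (edgeR adjusted p = 0.00108). POL32, a subunit that polymerases delta and zeta share, had 18.6 and 23.1 CPM at 48 h, against 66.7 and 53.5 CPM in log phase, and fell by 1.51 ± 0.17 (edgeR adjusted p = 1.8e-05). REV1 and REV7 were not called (edgeR adjusted p = 0.867 and 0.964), nor were SRS2 and MGS1 (0.199 and 0.141). Of 46 other repair genes 24 rose and 7 fell, or 4 without strain 1 at 48 h, and 18 to 22 rose when any 1 of the 4 libraries was left out. RAD16 and RAD4, of nucleotide excision repair, had 361 and 349.5 CPM and 201 and 134 CPM at 48 h, against 78.5 and 119.9 CPM and 39.0 and 36.7 CPM in log phase. RAD54, of homologous recombination, rose by 1.80 ± 0.24 (edgeR adjusted p = 8.2e-05), and RAD52, of the same path, had 114 and 98.7 CPM at 48 h and 126 and 125 CPM in log phase with no call (edgeR adjusted p = 0.165). The alkylation repair gene MAG1 and the photolyase gene PHR1 rose by 1.55 ± 0.14 and 1.17 ± 0.21 (edgeR adjusted p = 3.2e-06 and 5.5e-04).

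**Figure D5:**
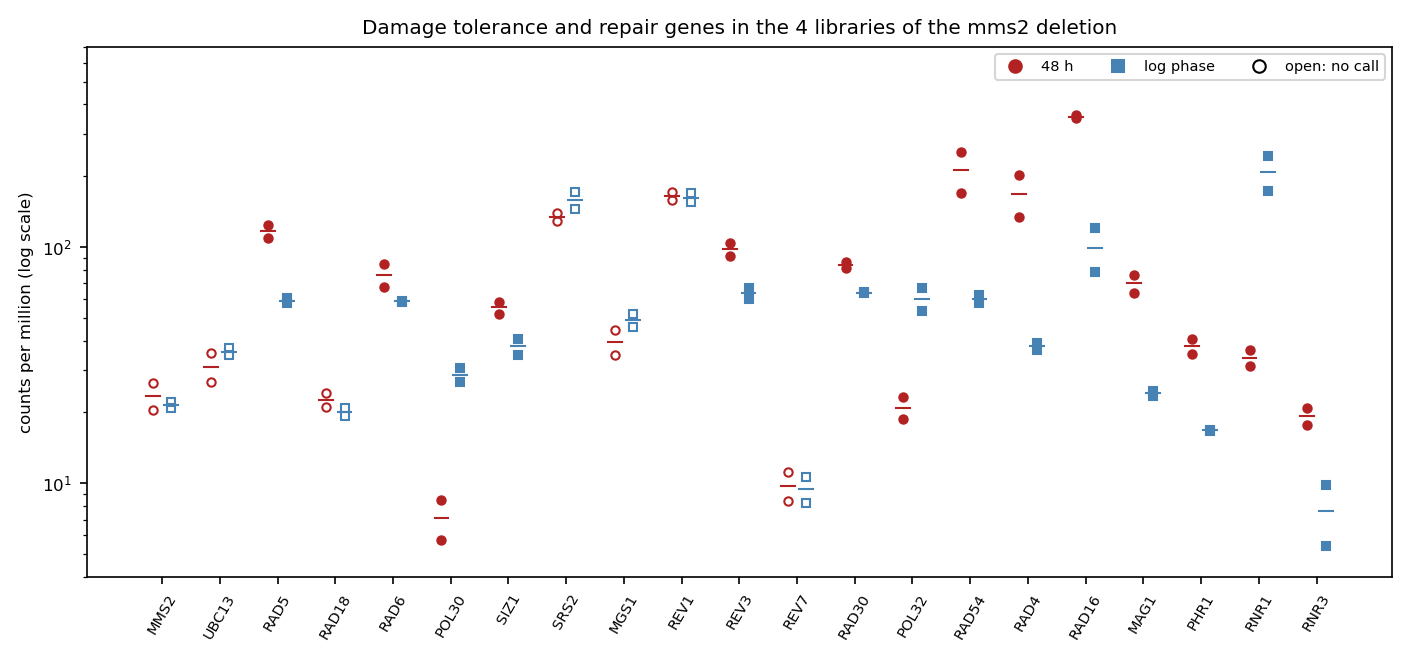
CPM on a log scale in each library of the mms2 intron deletion at 48 h (red circles, left of each pair) and in log phase (blue squares) for genes of damage tolerance and repair; short lines are means and open symbols mark genes with no call. MMS2, UBC13 and RAD18 lie at like levels in both phases, RAD5 and the excision repair genes are higher at 48 h, and POL30, POL32 and RNR1 are lower.

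Replication genes were lower in 18 of 34 and higher in 2. Ribonucleotide reductase changed its large subunit: RNR1 had 36.5 and 31.4 CPM at 48 h, against 172 and 241 CPM in log phase, and the damage-induced RNR3 had 20.7 and 17.6 CPM at 48 h, against 5.41 and 9.85 CPM in log phase. RNR1 fell by 2.61 ± 0.24 and RNR3 rose by 1.31 ± 0.30 (edgeR adjusted p = 6.0e-06 and 0.00283), and RNR3 made 36.6 ± 0.188% of their FPKM at 48 h, against 3.56 ± 0.629% in log phase, while their sum was 21.7 and 16.9 FPKM at 48 h, against 64.7 and 90.3 FPKM in log phase. The checkpoint kinase gene RAD53 was not called, with 40.5 and 44.2 CPM at 48 h and 31.5 and 38.4 CPM in log phase (edgeR adjusted p = 0.133), and DUN1, the kinase below it, fell by 0.72 ± 0.16 (0.00272). The cell cycle box ACGCGT was in 16 of 34 replication windows (47.1%) and in 5 of 19 damage tolerance windows (26.3%), against 3.16% of all, on either strand.

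Of 69 genes of splicing factors, which remove introns like the one deleted here, 18 were higher and 16 lower. These shares stand beside 33.4% and 30.7% of all genes, and the median was -0.11. With strain as a block 15 were higher and 14 lower, and fewer were called higher without strain 1 at 48 h or without strain 2 in log phase. PRP43, a helicase that also works in ribosome assembly, fell by 1.80 ± 0.12 and the U1 protein gene MUD1 rose by 1.03 ± 0.16 (edgeR adjusted p = 4.6e-07 and 1.6e-04). PRP8, the core of the spliceosome, had 473 and 475 CPM at 48 h and 343 and 424 CPM in log phase with no call (edgeR adjusted p = 0.157). The RNAs of the spliceosome were higher: the U2 RNA LSR1 had 64786 and 84894 CPM at 48 h, against 16695 and 14649.5 CPM in log phase, and the U1 RNA snR19 had 14234 and 15360.2 CPM at 48 h, against 3025 and 2592 CPM in log phase. They rose by 2.26 ± 0.27 and 2.40 ± 0.20 (edgeR adjusted p = 4.2e-05 and 2.6e-06). Among the 41 small nucleolar RNAs tested, 36 were called higher and 0 lower, at a median of 1.56, beside 11 with 0.77 in the ysf3 intron deletion and 16 with 0.82 in the wild type. Without wild-type strain 1, 18 rose in the wild type, with a median of 1.48. Without strain 2 at 48 h 16 of the 41 rose. All 75 small nucleolar RNAs of the list, tested or not, took 9.41% of counts in strain 1 and 11.6% in strain 2 at 48 h. In log phase they took 4.65% and 5.02%. Whether fragmentation or depletion of RNA bears on these short RNAs was not tested.

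Set beside the wild type, the phase change of the mms2 intron deletion differed in 0 genes at an edgeR adjusted p under 0.05, with 568 at an unadjusted p under 0.05 (370 higher and 198 lower in the deletion) and a lowest adjusted p of 0.502. It was 0 again without both libraries of wild-type strain 1, with 617 at an unadjusted p under 0.05 (278 higher and 339 lower in the deletion) and a lowest adjusted p of 0.418. Over all genes the difference had a median of 0.09 log2 and its middle 90% ran from -0.75 to 0.83. Beside the ysf3 intron deletion it was again 0 genes by edgeR, with 194 at an unadjusted p under 0.05 and a lowest adjusted p of 0.892, a median difference of 0.03 and a middle 90% from -0.58 to 0.62. DESeq2, run as an alternative, called 10 genes against the wild type, 0.676% of the 1480 to which it gave an adjusted p (0.203% higher and 0.473% lower), and 2 against the ysf3 intron deletion, 0.0330% of 6068. Without wild-type strain 1 it called 3 against the wild type, 2 of them among the 10. A difference of over 1 log2 from the wild type was fitted in 344 genes (469 without wild-type strain 1) and from the ysf3 intron deletion in 194, with no call by edgeR.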

How the data were processed

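Total RNA was ribodepleted, fragmented to 200 nt and made into libraries with ScriptSeq v2, per the labels' protocols. The deposited counts are whole reads per gene; Bowtie2, HTSeq and DESeq2 and the build sacCer3 are named in the submitters' processing notes, with versions not given in the sources used here. The deposited FPKM values were scaled by the authors to gene length and library size, and were used only for levels between genes without introns, where 99.4% to 99.6% of values lay within 0.1 log2 of count over length times a constant. The authors' deposited table gives log2 fold changes and adjusted p-values with the columns of a DESeq2 table, per the file headers; it was used only for the overlap of calls.

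Of 7126 genes, 1058 did not pass edgeR's expression filter, 562 of them with no count, which left 6068. All 12 libraries were fitted with edgeR 4.0.16 (R 4.3.3, TMM scaling, quasi-likelihood test, 1 mean per group, 6 residual degrees of freedom), and a gene was called at an adjusted p under 0.05. CPM were taken on the TMM-scaled library sizes. Differences between genotypes are contrasts of the same fit. DESeq2 1.42.0, other scalings and filters, and the fits leaving out a library were alternatives. Identifiers were matched to the R64 reference for 6169 genes, and near-identical copies were found with blastn 2.17.0. The strain numbers pair the phases, since per the labels the same strain was sampled in both; deviations of same-numbered libraries correlated at 0.0605 in the mms2 intron deletion, 0.0374 in the ysf3 intron deletion and -0.164 in the wild type. The fit was also run on counts simulated from its own means and spread. Such counts follow the model of the fit, so they cannot show whether that model suits these libraries. Counting error limits genes with few counts, most in strain 1 at 48 h.

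The genes named are the targeted genes, list members marked for their role and the 2 of largest fold in each list, the 12 highest and 12 lowest among called genes with a mean of at least 10 CPM and phases that do not overlap, any gene called between genotypes, the 6 per direction most uneven between strains, and the neighbours of MMS2 by position. The members and lists were chosen with earlier results of these data known.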

Additional observations from a re-analysis of the deposited data

Results flagged for a closer look

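In 12 genes DESeq2 called a phase change in the mms2 intron deletion that differed from that of another genotype, while edgeR called none (edgeR adjusted p = 0.502 for each against the wild type, and 0.892 and 0.988 against the ysf3 intron deletion). Values are the change of the mms2 intron deletion minus that of the other genotype, on the log2 scale. Without wild-type strain 1, DESeq2 called 3 genes against the wild type: VHT1 and BNA3 again, and the thioredoxin peroxidase gene AHP1.

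BAP3, a branched-chain amino acid permease, differed by 1.84 (DESeq2 adjusted p = 5.9e-04). It had 139 and 190.0 CPM at 48 h and 200.5 and 204 CPM in log phase in the deletion, against 50.5 and 58.5 CPM and 281 and 211 CPM in the wild type. GDH2, which fell in both, differed by 1.33 (DESeq2 adjusted p = 0.0163). GLT1, the glutamate synthase gene, differed by -0.95, GDH3 by -1.12 and MEP2 by -0.79 (DESeq2 adjusted p = 0.0185, 0.0363 and 0.0363). GLT1 had a fitted change of -0.20 in the mms2 intron deletion, against 0.72 in wild-type cells.

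Of the others, KGD1, a subunit of ketoglutarate dehydrogenase, differed by 0.88, with 1718 and 2148 CPM at 48 h in the mms2 intron deletion, against 1299 and 1206 CPM in wild-type cells (DESeq2 adjusted p = 0.00849). HBT1 differed by -1.35, BNA3 by -1.04 (DESeq2 adjusted p = 0.00849 for both), the biotin transporter gene VHT1 by -1.11 and the aldehyde dehydrogenase gene ALD3 by -1.60 (0.0163 for both). HBT1, VHT1 and ALD3 rose in both genotypes, by 3.75, 3.68 and 4.65 in the mms2 intron deletion, against 5.06, 4.76 and 6.22 in wild-type cells.

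Against the ysf3 intron deletion, PHM7 differed by -2.07 and the thiolase gene POT1 by -2.74 (DESeq2 adjusted p = 2.6e-05 and 0.0219). PHM7 had 1524 and 1277 CPM at 48 h and 6.48 and 5.94 CPM in log phase in the mms2 intron deletion, against 1942 and 2355 CPM and 1.67 and 2.84 CPM in the ysf3 intron deletion.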

How the results depend on the processing

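The count of 3890 called genes stayed within 1.5 times of itself in all alternatives but a limit of adjusted p under 0.001, which left 2333 (1163 higher, 1170 lower). It was 3891 with DESeq2 size factors, 3869 with library totals, 3859 with DESeq2, 3605 with strain as a replicate block (1885 higher, 1720 lower), 2693 in a test against a fold of 1.5, and 3424 to 3469 with a library left out. With no filter on low counts the median of all genes moved by -0.10 log2 and 1858 genes were higher and 2052 lower. For differences from the wild type, DESeq2 called 10 genes, or 3 without wild-type strain 1 (chosen after seeing the data), and leaving out a library gave 0 to 2: 2 without wild-type strain 2 in log phase, which leaves the library with the alpha pattern, 1 without strain 1 of the mms2 intron deletion in log phase, and 0 without both libraries of wild-type strain 1. For differences from the ysf3 intron deletion, DESeq2 called 2. The block called 0 in both. Of 423 named genes called, 369 kept the call in all alternatives but the stricter limits, and 54 lost it in at least 1. With a library left out, RDN37-1 ran from 0.00 to 12.03, YPL142C from -2.94 to 0.11 and YGL102C from -2.98 to 0.10 log2; these 3 turn on 1 library each. For YPL142C and YGL102C it is strain 1 in log phase, and for RDN37-1 strain 1 at 48 h. With 5051438 counts, strain 1 at 48 h limits the precision of genes with few reads.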

Other observations

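Some of the deepest falls were in genes of no list. INA1 had 7.31 and 4.47 CPM at 48 h, against 205 and 232 CPM in log phase. AIM20 had 3.75 and 1.49 CPM at 48 h, against 68.1 and 65.9 CPM in log phase. TIP1, a cell wall mannoprotein gene, had 3.55 and 4.33 CPM at 48 h, against 63.9 and 77.5 CPM in log phase. These genes were named for the depth of their fall, among called genes whose phases do not overlap. That both 48 h libraries lay below both log-phase libraries was therefore set by the choice, and is no separate measure of the fall.

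The stress element was in 10 of 14 windows of vacuolar hydrolase genes (71.4%), of which 9 rose and 4 fell, and in 6 of 10 windows of the GID ubiquitin ligase, beside 21.7% of all windows.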
